A study of Mus musculus with 8 samples.

Results

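Developmental transcription factors of the Hox, Fox, Sox, Pax, Lhx, Gata, Tbx, Zic, Cdx, Pou and Nkx families were examined in the brain of mice that lack ADAR2. Members were chosen by symbol alone: every gene whose platform symbol begins with one of these family names, or with Dlx, of which no probe was used. The rule found 73 probes of 58 genes among the 12131 named spots of 8653 genes. Of these, 62 probes of 52 genes belong to the families themselves. The other 11 probes, of 6 genes, only share the first letters: Gatad1, Gatad2a and Gatad2b, chromatin proteins with a GATA-type zinc finger, the thromboxane synthase Tbxas1, the B cell coactivator Pou2af1 and the DNA repair protein Paxx. They are counted with the rest and given apart.

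The tested RNA came from the brains of 4 male mutant mice, 19 weeks old, of the genotype ADAR-/-/GluR-BR/R. ADAR2, encoded by Adarb1, edits adenosines in double-stranded RNA, and the second alteration, in Gria2, makes the GluR-B subunit of AMPA receptors in its arginine form without editing. The control was a single pool of brain RNA from wildtype males, also 19 weeks old. The design text counts 4 wildtype mice in it, and the labelling protocol gives another number. Each mutant mouse was set against the pool on 2-colour cDNA arrays in both dye orientations, 8 arrays in all, so that n is the 4 mice. The labels name neither the strain nor the breeding scheme. Whole brain was used, so fewer cells of a type and less RNA per cell cannot be told apart, and a ratio holds no level against which a tissue marker could be checked.

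These factors bind DNA through a homeodomain, a forkhead, an HMG box, a paired domain, a T-box or zinc fingers, and set the fate of cells in the embryo. Hox genes mark position along the body axis behind the midbrain. Most family members are silent in the adult forebrain, while a minority stays on in mature neurons and glia: Zic1 in cerebellar granule cells, Pou3f2 and Pou3f3 in cortical neurons, Foxp1 in the striatum, Sox2 and Sox9 in astrocytes and stem cells. The genes were therefore sorted by textbook site of expression into adult brain factors (12 probes of 11 genes), factors of other tissues (24 probes of 22 genes), Hox genes (8 probes of 8 genes) and broad or mixed factors (18 probes of 11 genes). Foxd2 and Nkx2-4 were not sorted by site and are counted with the broad or mixed factors.

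The labels do not say which channel was divided by which, so 2 quantities are given, both in log2 units after subtracting each array's median. The mean ratio averages both arrays of a mouse and compares the mutant with the pool where every array has its ratio the same way up. The swap component is the Cy5-labelled mutant's value minus the Cy3-labelled one's, over 2, and compares the mutant with the pool where Cy5 was divided by Cy3. Each quantity loses the difference between mutant and pool under the other's reading, where it cancels between the 2 arrays of a mouse. A probe can still pass the test in the quantity that has lost it. A call alone is therefore not a difference between mutant and pool. Neither reading is settled, so positive and negative below are signs of these quantities and not directions of mutant against wildtype. Arrays of the same orientation correlated at 0.224 to 0.677 across all spots, and the 2 arrays of a mouse at 0.313 to 0.413. None of the pairs of arrays correlated below 0 (lowest r = 0.154). The arrays held 20211 to 20559 usable values of 20794 spots. Gene names rest on a shift of 11 spots between annotation and values, at which 2 probes of a gene resembled each other (rho = 0.255 across 2543 genes, against -0.0102 at the same spot number), so every name below depends on it. Adarb1, the disrupted gene, had one probe (spot 18422) at -1.25, -0.93, 0.12 and -0.07 with the mutant in Cy5 and at 1.97, 1.98, 1.96 and 1.82 with the mutant in Cy3 (mice 1 to 4), a swap component of -1.23 ± 0.164 (moderated SE, limma adjusted p = 0.0383) and a mean ratio of 0.70 ± 0.169 (adjusted p = 0.0297). Of its other probes, spot 18759 had a swap component of -1.33 ± 0.267 (adjusted p = 0.0424) and spot 14946 one of -0.10 ± 0.127 (adjusted p = 0.628). Their mean ratios were 0.26 (adjusted p = 0.667) and 0.12 (adjusted p = 0.631), opposite in sign to the swap components.

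Zic1, Foxd3 and Cdx2 passed the test in both quantities, and Pou5f1 was negative on all 8 arrays. The promoters of the first 3 are shown for that reason, and that of Pou5f1 as one with the opposite sign. Passing in both is a rule of choice and no stronger sign of a difference between mutant and pool. Under either reading, that difference is lost from the mean ratio or from the swap component. Averages for Zic1, Foxd3 and Cdx2 were 0.08, 0.35 and 0.39 with the mutant in Cy5 and 1.62, 1.90 and 1.88 in Cy3. Both calls thus rest mainly on the arrays with the mutant in Cy3. RefSeq gives the 250 bases before the first listed start of each gene on GRCm38.p6, 5′ to 3′, with capitals at each CG dinucleotide.
Zic1, chr9:91365769-91366018 (- strand): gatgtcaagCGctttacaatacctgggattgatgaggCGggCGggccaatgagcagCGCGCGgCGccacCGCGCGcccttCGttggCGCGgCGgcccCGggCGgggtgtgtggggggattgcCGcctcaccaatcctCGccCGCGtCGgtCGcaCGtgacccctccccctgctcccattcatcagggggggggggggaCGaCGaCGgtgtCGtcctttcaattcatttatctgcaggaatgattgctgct
Foxd3, chr4:99656049-99656298 (+ strand): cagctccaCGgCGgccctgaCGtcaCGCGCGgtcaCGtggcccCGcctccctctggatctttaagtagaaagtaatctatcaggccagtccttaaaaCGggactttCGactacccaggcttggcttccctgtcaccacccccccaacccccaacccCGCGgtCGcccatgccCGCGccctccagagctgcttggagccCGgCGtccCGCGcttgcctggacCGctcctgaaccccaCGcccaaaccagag
Cdx2, chr5:147307250-147307499 (- strand): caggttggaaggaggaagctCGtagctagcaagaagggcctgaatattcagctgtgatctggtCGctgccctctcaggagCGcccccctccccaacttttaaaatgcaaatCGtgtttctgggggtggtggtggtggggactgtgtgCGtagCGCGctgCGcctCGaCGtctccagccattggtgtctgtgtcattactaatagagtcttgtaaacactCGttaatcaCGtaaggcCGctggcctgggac
Pou5f1, chr17:35505782-35506031 (+ strand): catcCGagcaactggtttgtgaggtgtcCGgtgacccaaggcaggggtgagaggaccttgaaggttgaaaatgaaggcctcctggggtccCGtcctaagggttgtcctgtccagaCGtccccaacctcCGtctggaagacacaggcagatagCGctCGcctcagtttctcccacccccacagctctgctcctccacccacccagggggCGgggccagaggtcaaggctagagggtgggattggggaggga
The Zic1 window held 27 CG dinucleotides, that of Foxd3 21, that of Cdx2 13 and that of Pou5f1 8, while the median was 6 over 27025 promoters and 15 over the 7009 of genes named on the array. Cdx2 and Pou5f1 thus lay between these medians. A CCAAT box, searched as CCAAT and ATTGG, was found in the windows of Zic1, Cdx2 and Pou5f1, and in 34.5% of all promoters. Promoter sequence was matched for 39 of the 58 genes, too few for the classes to be compared on it.

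In the mean ratio, 19 of the 70 factor probes with a value in every mouse passed the limma test (27.1%), against 30.4% of all 20595 probes and 29.4% of those with a gene name. Of these 11 were positive (17% of all probes and 18.6% of named ones were) and 8 negative (13.3% of all probes and 10.7% of named ones). The share of factors past the threshold was thus near that of the array as a whole. The median of the factor probes was -0.18, that of all probes -0.09 and that of named probes -0.003. Values as deposited, with no medians subtracted, gave 5 positive and 13 negative factor probes, and moved the median of all probes to -0.25. Hox genes, Sox factors and Gata factors gave 1, 0 and 0 calls among 7, 10 and 3 probes tested, Fox factors 7 among 23. Pou, Nkx, Tbx, Zic and Cdx factors gave 2, 2, 1, 1 and 1 among 3, 2, 3, 1 and 2. Pax and Lhx factors gave 0 and 0 among 4 and 1. Numbers this small cannot set a family apart from the 30.4% of all probes. Without the symbols that share only a prefix, 15 of 59 probes passed, 8 positive and 7 negative. The pool is 1 control sample, so these tests leave out the spread between wildtype mice. Arrays with the mutant in Cy5 alone gave 0 calls on the whole array, and those with it in Cy3 alone gave 6625.

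**Figure D1:**
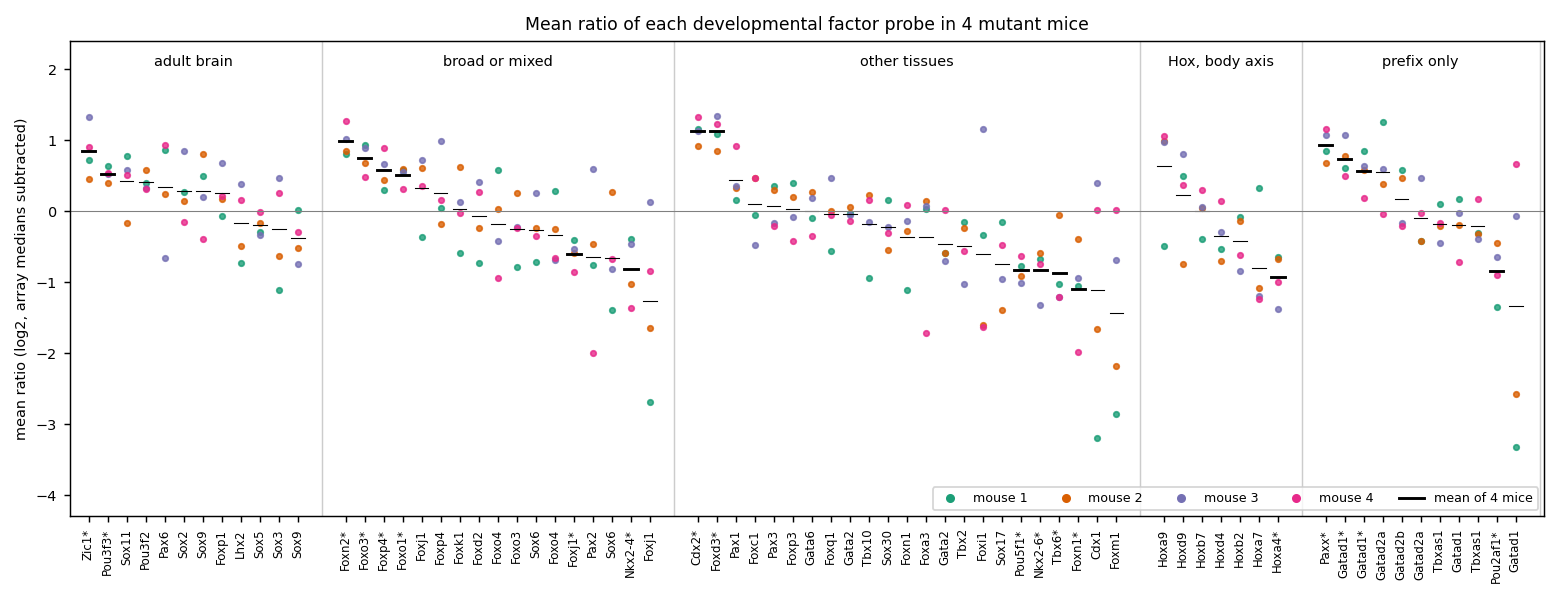
Mean ratio (log2, array medians subtracted) of the 70 factor probes with a value in every mouse, grouped by textbook site of expression and ordered by their mean. Points are the 4 mice, bars their mean, and thick bars with an asterisk mark the 19 probes past the limma threshold, from 1.13 for Cdx2 to -1.09 for Foxn1.

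Factors kept in the adult brain had positive mean ratios in 8 of 12 probes, and 2 passed, both positive. Without mouse 2 a single one of them passed, and without mouse 1, 3 or 4 the count was 0. Their median was 0.28, with 0.34, 0.15, 0.42 and 0.24 in mice 1 to 4. Across the array, 9205 of 20595 probes tested were above 0 and 11390 below. Of named probes 5988 of 12020 were above 0 and 6032 below, with medians of 0.12, 0.09, 0.04 and 0.03 in mice 1 to 4. Factors of other tissues were positive in 6 of 23 probes and negative in 17. In this class 2 positive and 4 negative probes passed (26.1%, near the 30.4% of all probes). The class median was -0.36, while the medians within mice 1 to 4 were -0.15, -0.05, -0.16 and -0.21. The medians of the 2 classes kept these signs in every mouse. Hox genes had a median of -0.35 over 7 probes, and the medians of mice 1 to 4 were -0.39, -0.68, -0.29 and 0.14. Broad or mixed factors had a median of -0.18 over 17 probes, and their 4 mice lay on both sides of 0. No test of a class against another was made, and members are not replicates of a condition. The class of other tissues is not free of brain cells, as it holds Sox17, of endothelium, and Foxc1, of vessels, which are part of whole brain.

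The classes lay closer together where the mutant carried Cy5 and further apart where it carried Cy3. With the mutant in Cy5 the median was 0.08 for adult brain factors and -0.05 for factors of other tissues. With the mutant in Cy3 it was 0.58 for adult brain factors and -0.39 for factors of other tissues. With arrays scaled to the same median absolute deviation the medians were 0.18 and -0.24, and with runs of 48 spots centred they were 0.07 and -0.30, in the same order of classes. No adult brain probe passed with a positive sign in either setting, nor with values as deposited, where the class median was 0.11. On the negative side 2 passed with runs centred, 0 with scaled arrays and 1 as deposited.

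The 2 calls among 12 adult brain factor probes are 16.7%, against 30.4% of all probes. Marker lists of brain cell types are given beside them, and for these too 17% of all probes were positive calls and 13.3% negative ones. Of 13 probes of neuron markers, 10 passed with a positive sign and 0 with a negative one (median 0.89). Astrocyte markers had 7 positive of 12 and oligodendrocyte markers 5 positive of 7, with none negative in either, while endothelial markers had 1 positive and 1 negative of 6 (33.3%, near the share of all probes). Microglia and blood markers had 6 positive and 4 negative of 12. Of the 6, C1qb, a complement gene of microglia, was one and the rest were probes of the haemoglobin gene Hba-a1, while Ptprc, Aif1 and Alas2 made up the negative ones. Pituitary, choroid plexus and ependyma markers had 1 positive and 1 negative of 8, or 25%. The part of these cell types in the result was not tested.

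**Figure D2:**
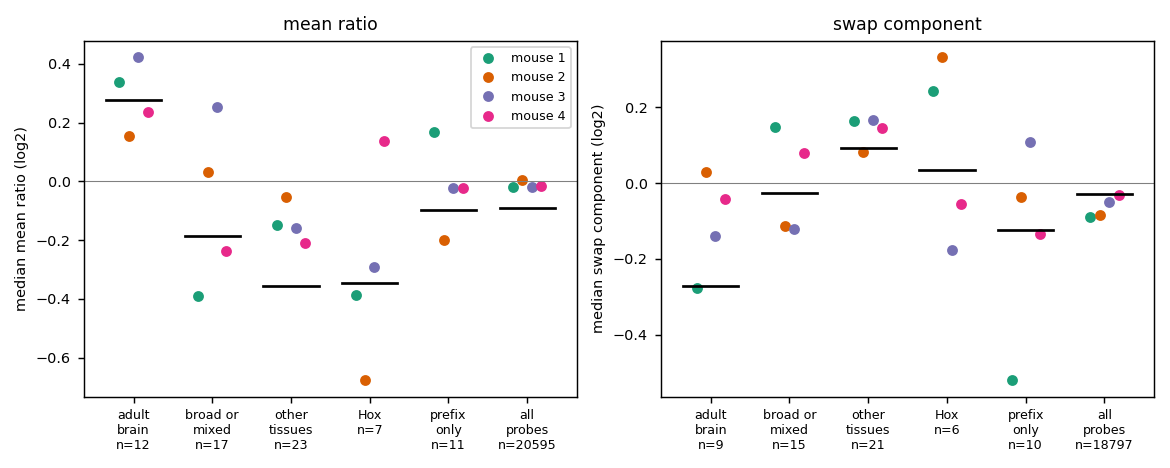
Median over probes of the mean ratio (left) and of the swap component (right), in log2 units, for each class of factors and for all probes. Points are the 4 mice and bars the median of the means over mice. Adult brain factors lay above 0 in the mean ratio of every mouse (0.15 to 0.42), and factors of other tissues below 0 (-0.21 to -0.05).

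Zic1, a zinc finger factor of cerebellar granule cells, was the adult brain factor with the largest mean ratio. Its log2 ratios were 0.11, -0.43, 0.54 and 0.10 with the mutant in Cy5 and 1.32, 1.33, 2.11 and 1.70 with the mutant in Cy3 (mice 1 to 4). The orientations did not overlap, and the values with the mutant in Cy5 lay on both sides of 0. Its mean ratio was 0.85 ± 0.183 (moderated SE, n = 4, limma adjusted p = 0.0221) and its swap component -0.77 ± 0.114 (adjusted p = 0.0383). The mean ratio was 0.36 with runs of 48 spots centred (adjusted p = 0.219) and 0.08 from the Cy5-labelled mutant arrays only (adjusted p = 0.824).

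Pou3f3, a POU factor of upper-layer cortical neurons, was the other adult brain factor past the threshold. Its ratios were 0.007, -0.34, 0.13 and 0.37 with the mutant in Cy5 and 1.26, 1.14, 0.93 and 0.69 with the mutant in Cy3. Again the orientations did not overlap. The mean ratio was 0.52 ± 0.129 (limma adjusted p = 0.0321), and it was not past the threshold without any one mouse (adjusted p = 0.0872 to 0.0949). Its close relative Pou3f2, active in the same cortical layers, had mean ratios of 0.40, 0.58, 0.33 and 0.31 in mice 1 to 4 (mean 0.40 ± 0.132, adjusted p = 0.0678). All 4 mice were positive, but the probe was not past the threshold.

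The remaining adult brain factors were spread around 0. Sox11, a factor of newborn neurons, averaged 0.42 ± 0.195 (adjusted p = 0.15), with mouse 2 at -0.17 and the others at 0.52 to 0.78. Pax6, of the olfactory bulb and cerebellar granule cells, was at 0.87, 0.24, -0.66 and 0.93 in mice 1 to 4, so mouse 3 stood against the rest. Foxp1, a forkhead factor of striatal neurons, averaged 0.25 ± 0.169, and Sox2, of stem cells and astrocytes, 0.28 ± 0.197. Sox5, of deep-layer cortical neurons, was negative in all 4 mice at -0.20 ± 0.134 (adjusted p = 0.291). Lhx2, of cortical progenitors, was negative in mice 1 and 2 (-0.73 and -0.50) and positive in mice 3 and 4 (0.38 and 0.15). Sox3, of neural progenitors, had the same split, with -1.11 and -0.62 in mice 1 and 2 and 0.47 and 0.26 in mice 3 and 4.

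The largest positive mean ratios of all factors belonged to genes that are not known as factors of the adult brain. Cdx2, the homeodomain factor of the gut, was at 0.41, -0.22, 0.66 and 0.70 with the mutant in Cy5 and at 1.90, 2.06, 1.58 and 1.95 with the mutant in Cy3. Its mean ratio was 1.13 ± 0.138 (limma adjusted p = 0.00924) and its swap component -0.74 ± 0.147 (adjusted p = 0.0418). Of its 8 values 2 matched ratios of small whole numbers, and the probe was not tested with such values set to missing. Foxd3, the forkhead factor of neural crest and embryonic stem cells, was at 0.27, 0.15, 0.66 and 0.33 with the mutant in Cy5 and at 1.89, 1.55, 2.03 and 2.11 with the mutant in Cy3. All 8 of its arrays were positive, and its orientations did not overlap either. Its mean ratio was 1.12 ± 0.146 (adjusted p = 0.00924) and its swap component -0.77 ± 0.112 (adjusted p = 0.0383). Both probes lie at the start of the array, at spots 14 and 29, and both mean ratios remained past the threshold with runs of 48 spots centred. With the mutant in Cy5 only, they were 0.39 and 0.35 (adjusted p = 0.306 and 0.25).

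**Figure D3:**
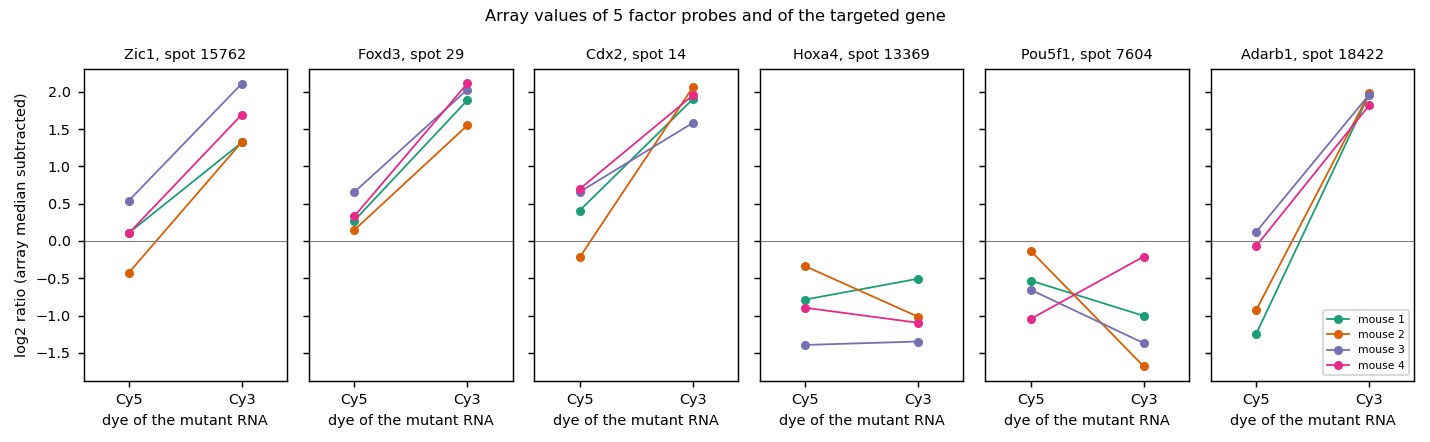
Log2 ratios (array median subtracted) of 5 factor probes and of one probe of Adarb1, with the mutant RNA in Cy5 (left of each panel) and in Cy3 (right). Lines join the 2 arrays of a mouse. Zic1, Foxd3 and Cdx2 lay higher on every array with the mutant in Cy3 (1.32 to 2.11), while Hoxa4 and Pou5f1 were negative on all 8 arrays.

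Among the 17 tested probes of broad or mixed factors, 6 passed (35.3%, near the 30.4% of all probes). The 4 positive ones were forkhead probes, those of Foxn2, Foxo3, Foxp4 and Foxo1. The 2 negative ones were Foxj1 (spot 13127) and Nkx2-4, the latter not sorted by site of expression. Foxn2 had values of 0.54, 0.60, 0.85 and 1.02 with the mutant in Cy5 and 1.06, 1.09, 1.18 and 1.51 with the mutant in Cy3, all above 0 and without overlap. Its mean ratio was 0.98 ± 0.146 (limma adjusted p = 0.0101), and its swap component of -0.23 was not past the threshold (adjusted p = 0.209). Foxo3, a forkhead factor held back by insulin signalling, had 1 probe (spot 16219) with 0.93, 0.68, 0.89 and 0.48 in mice 1 to 4 and a mean ratio of 0.75 ± 0.145 (adjusted p = 0.0172). That call was lost in 6 alternatives, with 0.36 for runs of 48 spots centred (adjusted p = 0.104), 0.25 for the averaged probes of the gene (adjusted p = 0.199) and 0.21 for the mutant in Cy5 only (adjusted p = 0.402). Foxo1, its relative, stood at 0.51 ± 0.134 (adjusted p = 0.0383), again with all 8 arrays above 0. A probe of Foxp4 (spot 6486) averaged 0.57 ± 0.156 (adjusted p = 0.0417). Of the symbols that only share a prefix, Paxx stood at 0.85, 0.67, 1.08 and 1.16 in mice 1 to 4 (mean ratio 0.94 ± 0.148). Of the 4 probes of Gatad1, 2 passed, at 0.56 and 0.74.

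On the negative side, Hoxa4 was the only Hox gene past the threshold. It stood at -0.79, -0.34, -1.40 and -0.90 with the mutant in Cy5 and at -0.51, -1.02, -1.35 and -1.10 with the mutant in Cy3. All 8 arrays were below 0 and the orientations overlapped. The mean ratio was -0.92 ± 0.175 (limma adjusted p = 0.0159), and the adjusted p was 0.0503 without mouse 2, 0.0543 without mouse 3 and 0.0582 without mouse 4. The other 6 Hox probes tested ranged from -0.80 for Hoxa7 to 0.63 for Hoxa9, whose mouse 1 stood at -0.49 and the others at 0.97 to 1.06. Hoxb7 averaged 0.003, and Hoxc9 had no value in mouse 1.

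Pou5f1, the POU factor of embryonic stem cells also called Oct4, was at -0.53, -0.13, -0.65 and -1.05 with the mutant in Cy5 and at -1.004, -1.68, -1.37 and -0.21 with the mutant in Cy3. It too was below 0 on all 8 arrays, with a mean ratio of -0.83 ± 0.138 (limma adjusted p = 0.0121). Of its 8 values 3 matched ratios of small whole numbers, which weak spots can show. Foxn1, the forkhead factor of thymus and hair, stood at -1.05, -0.39, -0.94 and -1.99 in mice 1 to 4 at spot 6146, with a mean of -1.09 ± 0.272 (adjusted p = 0.033). Its call was lost with runs of 48 spots centred (-0.84, adjusted p = 0.105) and without mouse 1, 3 or 4 (adjusted p = 0.0639 to 0.0851), among 6 alternatives. The value of mouse 4, -1.99, rested on -3.62 with the mutant in Cy5 and -0.35 with the mutant in Cy3. Tbx6, a T-box factor of paraxial mesoderm, was at -1.03, -0.05, -1.21 and -1.21 in mice 1 to 4 (mean -0.88 ± 0.237, adjusted p = 0.0409). Tbx6 averaged -0.10 with the mutant in Cy5 (adjusted p = 0.835) and -1.66 with the mutant in Cy3, and without mouse 1, 3 or 4 it did not pass (adjusted p = 0.106 to 0.125). Nkx2-6, of the pharynx, stood at -0.67, -0.59, -1.32 and -0.74 in mice 1 to 4, with a mean of -0.83 ± 0.173 (adjusted p = 0.0204), and its relative Nkx2-4 -0.81 ± 0.209 (adjusted p = 0.0362). Pou2af1, which only shares a prefix, stood at -1.35, -0.45, -0.65 and -0.90 in mice 1 to 4 (mean -0.84 ± 0.188).

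Several factors of other tissues had large means, differed between mice and did not pass. Foxm1, the forkhead factor of dividing cells, had the lowest mean of all factors, -1.43, with -2.86, -2.18, -0.69 and 0.01 in mice 1 to 4 (limma adjusted p = 0.0783). Cdx1, a gut factor like Cdx2, was at -3.19, -1.67, 0.40 and 0.01 (adjusted p = 0.214), with 3 of its 7 values at whole-number ratios. Mice 1 and 2 were the lower ones in both genes, and across all spots, too, their arrays of the same orientation resembled each other (r = 0.367 and 0.677). Sox17, of endothelium and endoderm, averaged -0.74 (adjusted p = 0.061). Gata2, a factor of blood progenitors, had -0.46 and -0.04 at its 2 probes, and Gata6, of heart and endoderm, -0.001. Pax1, a paired factor of the sclerotome, averaged 0.44 with all 4 mice above 0 (adjusted p = 0.106).

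Of the factor values 8.14% matched whole-number ratios, against 6.23% of all values on the arrays. The share was 3.23% for adult brain factors, 10.8% for factors of other tissues, 11.6% for broad or mixed factors and 1.64% for Hox genes. The factor probes also lacked a value more often, at 3.25% against 1.76% of all. Chance matches were not estimated, and the part of weak spots in the difference between the classes was not tested. With those values set to missing, the median mean ratio was 0.27 for adult brain factors and -0.36 for factors of other tissues.

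In the swap component 4 of 61 factor probes passed (6.56%, against 7.84% of all 18797 probes and 8.05% of named ones), none of them positive (1.41% of all probes, 1.09% of named ones) and 4 negative (6.43% of all, 6.95% of named ones). They were Foxj1 (spot 17437), Foxd3, Zic1 and Cdx2, the last 3 being the probes described above. Foxj1 is the forkhead factor of ciliated cells, the ependyma included. It stood at -1.34, -0.43, 0.26 and -0.41 with the mutant in Cy5 and at 0.61, 1.64, 1.17 and 1.12 with the mutant in Cy3, which did not overlap. Its swap component was -0.81 ± 0.141 (limma adjusted p = 0.0383). At spot 13127 of the same gene it was -0.03 (adjusted p = 0.919), and spot 16343 was not tested. The averaged probes of the gene gave -0.42 (adjusted p = 0.0505). The median swap component was -0.27 for adult brain factors (9 probes), 0.09 for factors of other tissues (21 probes), -0.03 for all probes and -0.085 for named ones. Within mice 1 to 4 the adult brain median was -0.28, 0.03, -0.14 and -0.04, so mouse 2 stood on the other side of 0. Marker lists had medians in the same quantity of -0.53 for neurons (5 negative calls of 12), -0.71 for oligodendrocytes (3 of 7) and -0.33 for astrocytes (2 of 12). Microglia and blood markers had -0.39 (5 of 12) and endothelial markers -0.16 (0 of 5). Pituitary, choroid plexus and ependyma markers went the other way, at 0.47 (0 of 6). The part of these cell types in the class median was not tested. None of the 4 calls, nor any other on the array, remained when values were used as deposited, when arrays were scaled to the same median absolute deviation, when runs of 48 spots were centred, or without any one mouse. At an unadjusted p under 0.05 these settings still held 12 to 24 factor probes (limma), against 15 in the setting used here.

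With the sign of the Cy3-labelled mutant arrays reversed, 0 of 61 factor probes with complete values had a single sign throughout, against 1.69% of all probes. With the signs left alone 7 of 61 had (11.5%), against 21.8% of all probes. The 7 were Foxd3, Foxn2, Foxo1 and Foxo3 above 0, and Foxj1 at spot 13127, Hoxa4 and Pou5f1 below.

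Probes of the same gene often differed. Of 11 genes with several probes, 5 had probes of opposite sign in the mean ratio, and none had every tested probe past the threshold. The 3 probes of Foxj1 stood at -0.60, -1.26 and 0.33, and only the first passed (limma adjusted p = 0.0287). Sox9, of astrocytes and cartilage, had 0.28 at one probe and -0.38 at the other in the mean ratio, and -0.57 and 0.52 in the swap component. The second probe of Foxo3 tested stood at -0.25 (adjusted p = 0.37), while the other probe of Foxn1 had -0.36 (adjusted p = 0.269). The 4 probes of Gatad1 ranged from -1.33 to 0.74. The median distance between the lowest and the highest probe of a gene was 0.65. The labels do not say which stretch of a transcript a probe covers.

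**Figure D4:**
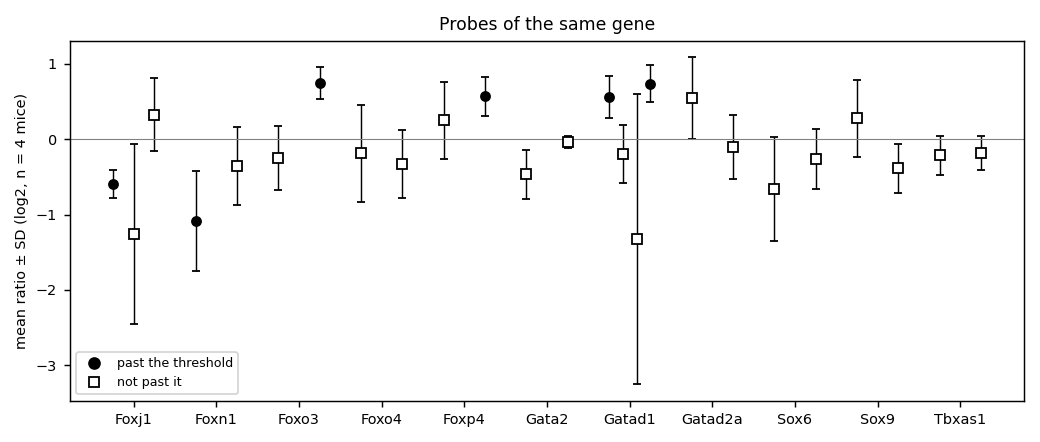
Mean ratio (log2) of each tested probe of the 11 genes with several factor probes. Symbols are means and bars the SD over 4 mice, and filled circles mark probes past the limma threshold. Foxj1, Foxo3, Gatad1, Gatad2a and Sox9 had probes on both sides of 0.

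Partners and regulators of these factors were read from lists of symbols. Cofactors of Hox, LIM and GATA factors had 5 positive calls and 1 negative call among 18 probes of 12 genes in the mean ratio (median 0.31), a share of 33.3% that is near the 30.4% of all probes. Lmo4, a LIM-only protein that binds the partners of Lhx factors, stood at 1.12 ± 0.139 and 1.01 ± 0.13 at its 2 probes past the threshold (limma adjusted p = 0.00924 for each), with swap components of -0.65 and -0.71. Tle5, a short Groucho-type protein, had 1.04 ± 0.146 and 0.53 ± 0.132 at 2 probes and 0.51 at another, which did not pass, while Tle3, a corepressor of the same family, had -1.04 ± 0.254 at one probe and 0.14 at the other, which did not pass. Polycomb and Trithorax regulators, which keep these genes silent or active, had 2 positive and 2 negative calls among 20 probes (20%, median -0.16), below that share. Phc2, a Polycomb subunit, stood at -1.78 ± 0.215 at one probe, and its other 3, at -0.32, -0.13 and 0.48, did not pass. Wdr5, a subunit of histone methylases, had -1.61 ± 0.36 at one probe, with 0.44 and -0.07 at the others, which did not pass. Ezh1, a Polycomb methylase of non-dividing cells, stood at 0.65 ± 0.149. Neuronal and glial factors of other families had 12 positive calls and 1 negative call among 31 probes of 17 genes (41.9%, median 0.24). Nfix, a nuclear factor of neural stem cells and neurons, had 1.01 ± 0.126 at the highest of its 4 probes, 2 of which passed, and Mef2c, a factor of excitatory neurons, 1.01 ± 0.137 and 0.94 ± 0.165. Rora, the orphan receptor of Purkinje cells, passed at 0.93, 0.77 and -0.65, so its probes did not share a sign.

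The annotation lists 28 more probes of these families, with 18 further genes, among the last 640 annotated spots, where factors make up 4.38% of annotated spots, against 0.602% elsewhere. The further genes are mostly Hox and Tbx genes, such as Hoxb4 and Tbx5. The naming shift was uncertain there, so they were not analysed here.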

How the data were processed

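Brain RNA of each mutant was copied into dye-labelled cDNA and hybridised together with the pool, per the labels. The deposited values are log2 ratios of the authors, with 1 additive constant per array. Scale and constant were read from the values, where low-signal spots pile up at quotients of small integers. Median deposited values were -0.147, -0.034, -0.0045 and -0.033 (mice 1 to 4, mutant in Cy5) and -0.571, -0.283, -0.134 and -0.085 (mutant in Cy3). Centring and direction stay unknown, and the sources used here do not give image analysis or normalisation. A code for an empty denominator (1 to 30 values per array) was set to missing. Array medians were subtracted and the 4 mouse values tested against 0 with limma 3.58.1 (R 4.3.3, lmFit and eBayes), fitted on the whole table with p adjusted by Benjamini-Hochberg (threshold 0.05), and checked on simulated data. Errors are moderated standard errors. The number of arrays limits the precision, as no intensities were used here. Nothing in the labels groups arrays into batches. Within an orientation, mice 1 and 2 and mice 3 and 4 correlated more closely across all spots than other pairs of mice. With the mutant in Cy5, r was 0.367 and 0.401, against 0.224 to 0.286 for the other pairs. With the mutant in Cy3 it was 0.677 and 0.583, against 0.425 to 0.519. The cause was not tested. Platform names were used up to annotation number 20000, and all 73 factor probes matched RefSeq (GRCm38.p6) by gene identifier with the same symbol. Whole-number ratios (up to 10, within 0.001) were matched after removing the constant.

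Members, classes, lists and tests were chosen with earlier results of these data known. Values in every mouse or array are given for up to 6 probes per sign and quantity with the largest absolute mean past the threshold and for adult brain factors past it. The text also describes other adult brain members and, chosen after their values were seen, a few further members. Of each list at most 3 genes past the threshold with the largest absolute mean were named. The microglia and blood markers named were chosen after their values were seen.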

Additional observations from a re-analysis of the deposited data

Results flagged for a closer look

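The mouse values of the probes chosen by the naming rule, in both quantities, made 28 groups of 4 mice that were examined for a sample far from the others, and chance gives about 1 in 20. One stood out: Tbx6 (spot 18781), where mouse 2 had a mean ratio of -0.054 and the other 3 mice lay between -1.212 and -1.031.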

How the results depend on the processing

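Of the 17 calls chosen by the naming rule, none changed sign under any alternative. The mean ratio calls of Foxo1, Foxp4, Nkx2-4, Foxj1 and Gatad1 were not followed through the alternatives probe by probe. Cdx2 lost the mean ratio call in 1 alternative and kept it in 10, and was not tested with whole-number ratios set to missing. Foxd3 and Foxn2 each lost it in 1 and kept it in 11. Paxx lost it in 2, Pou5f1 in 3, Hoxa4 in 4, and Tbx6, Nkx2-6 and Pou2af1 in 5 each. Foxn1 and Foxo3 lost it in 6 each, Zic1 in 7 and Pou3f3 in 8. Each swap component call was lost in 7 or 8 alternatives and kept in 0 to 2.

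For the mean ratio, the main counts were 6256 probes and 19 factor probes, 11 positive and 8 negative, with a factor median of -0.176. Probes with values on all 8 arrays gave a median of -0.041. Runs of 48 spots centred left 4 positive factor probes. Arrays with the mutant in Cy5 gave 0 probes and 0 factor probes, 0 positive and 0 negative (limma; 4748 probes and 10 factor probes at an unadjusted p under 0.05), and a median of 0.031. Values as deposited gave 5 positive and 13 negative factor probes and a median of -0.311, with 37.4% of all calls positive, against 56.1%. Averaging the probes of a gene gave 2481 genes past the threshold, 7 of them positive factors, and a median of -0.063. Scaling by the median absolute deviation gave 7 positive and a median of -0.093. Names at the same spot number gave 18 positive and a median of 0.194. Without one mouse, 2544 to 4015 probes passed and 4 to 11 factor probes, 4 to 6 positive and 0 to 5 negative, with medians of -0.172 to -0.036. The fewest came without mouse 3.

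For the swap component, the main counts were 1473 probes and 4 factor probes, 0 positive and 4 negative, with a median of 0.032. Runs centred, deposited values, scaling and every omission of one mouse gave 0 probes, 0 factor probes and 0 negative (limma; 3815 to 5785 probes at an unadjusted p under 0.05). The median was 0.139 as deposited and -0.021 to 0.051 without one mouse. Averaging gave 755 genes. Setting whole-number ratios to missing gave 1 positive and 2 negative factor probes. Names at the same spot number gave 9 factor probes, 9 of them negative, and a median of -0.087.

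The mean ratio of Adarb1 spot 14946 was -0.044 as deposited and -0.032 to 0.225 without one mouse, and its swap component 0.008 as deposited. Spot 18422 had a mean ratio of -0.532 with the mutant in Cy5, 0.540 as deposited, 0.336 scaled and 0.587 to 0.815 without one mouse. Its swap component was -1.230 with runs centred, -1.126 as deposited, -1.196 scaled and -1.337 to -1.107 without one mouse. Spot 18759 had mean ratios of -1.072 with the mutant in Cy5, -0.115 scaled and -0.070 to 0.787 without one mouse, and swap components of -1.397 with runs centred, -1.221 as deposited, -1.481 scaled and -1.560 to -1.023 without one mouse. The causes were not tested. No paired analysis was possible because the labels give a single group of samples, so no replicate numbers are shared between groups. The 2 arrays of a mouse are already paired in the swap component.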
